A study of Mus musculus with 2 samples.

Results

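The mouse mitochondrial genome carries 37 genes, and all 37 were present in both deposited count files of a single-cell RNA-sequencing study of the trigeminal ganglion (TG). They were chosen by name, as every gene symbol that begins with mt-, out of 39098 symbols in the files (36541 in the control file and 32641 in the CFA file). The set holds 13 genes for proteins of the respiratory chain, 2 for ribosomal RNAs (rRNAs) and 22 for transfer RNAs (tRNAs). Right TGs, which hold the cell bodies of the sensory neurons of the face, came from C57BL/6 male mice aged 5 to 8 weeks, killed 7 days after 20 μL had been injected into the right vibrissal pad. The CFA group received complete Freund's adjuvant (CFA), which causes a lasting inflammation, in saline, and the control group received saline by the study's methods, although the sample labels call it untreated. Each group is represented by 1 BD Rhapsody library of polyadenylated RNA, and how many mice a library pooled is not given in the sources used here.

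RNA molecules were counted by unique molecular identifiers (UMIs), each standing for 1 captured molecule. The control file held 7298 cells with 48916096 UMIs and the CFA file 4080 cells with 22096268 UMIs, and 27 cell barcodes occurred in both. After the filters used by the study, which kept cells with at least 150 genes and at most 25% mitochondrial UMIs, 6695 control and 3661 CFA cells remained. Levels are given in CPM, counts of a gene relative to all UMIs of its class and library, and as a percentage of the mitochondrial UMIs. Libraries were compared by the log2 of the CFA level over the control level, and parentheses hold exact 95% intervals, which cover counting error only. With 1 library per condition no difference has a replicate check and no test was made, so any factor that differed between the 2 libraries cannot be told apart from the treatment.

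As background, mitochondrial DNA is transcribed from both strands into long precursors that are cut apart at the tRNAs lying between the other genes. Most of the genes are read from the heavy-strand promoter, while mt-Nd6 and 8 tRNA genes, 9 in all, lie on the opposite strand, called light-strand genes here. The messenger RNAs and rRNAs of mammalian mitochondria carry short poly(A) tails, and the mRNA of mt-Nd6 is known as the exception that mostly lacks them. The proteins are subunits of NADH dehydrogenase (complex I), cytochrome bc1 (complex III), cytochrome c oxidase (complex IV) and ATP synthase (complex V), which otherwise consist of nuclear-encoded subunits. Sensory neurons depend on this chain to fuel ion pumps and axonal transport, and the fraction of mitochondrial RNA is a usual quality measure of dissociated cells.

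The nuclear genome holds near-identical copies of mitochondrial DNA, which bear on how reads of several of these genes can be placed. The following annotated 3′ ends, from the GENCODE M21 transcripts (GRCm38), are shown 5′ to 3′ on the strand of each gene. Whether the captured RNAs end at these annotated ends was not examined. The first 2 pairs set mt-Atp6 (chrM:8548-8607, plus strand) beside the nuclear pseudogene Gm10925 (chr1:24613974-24614030, minus strand) and mt-Co3 (chrM:9331-9390, plus strand) beside Gm28437 (chr1:24613189-24613247, minus strand). Capitals mark the bases beyond the annotated end of the nuclear copy, past which the nuclear sequence was not examined.
mt-Atp6: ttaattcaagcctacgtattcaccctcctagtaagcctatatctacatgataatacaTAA
Gm10925: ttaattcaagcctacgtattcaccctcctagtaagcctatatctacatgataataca
mt-Co3: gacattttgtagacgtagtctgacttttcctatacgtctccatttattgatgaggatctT
Gm28437: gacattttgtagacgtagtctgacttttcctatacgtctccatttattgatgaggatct
The annotated copies are identical to the mitochondrial genes up to the final bases, so a read inside either gene matches both places equally well.

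The next pair shows the last 120 bases of mt-Co1 (chrM:6753-6872, plus strand), whose level was higher in the CFA library in every class, beside its full-length nuclear copy Gm13340 (chr2:22588103-22588222, minus strand). Capitals mark the positions at which they differ, which are G1458A, T1464C and T1506C counted from the first base of mt-Co1, with the mitochondrial base written first.
mt-Co1: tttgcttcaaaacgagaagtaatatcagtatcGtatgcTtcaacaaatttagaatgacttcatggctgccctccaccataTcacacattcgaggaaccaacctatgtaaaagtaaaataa
Gm13340: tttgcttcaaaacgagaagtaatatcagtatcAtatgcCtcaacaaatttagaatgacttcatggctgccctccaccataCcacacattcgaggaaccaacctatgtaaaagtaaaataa
Over their whole length of 1545 bases the pair differed at 37 positions and was 97.6% identical, and the longest stretch without a difference was 148 bases. A second, partial copy, Gm29216, is identical to mt-Co1 over the 120 bases shown (chr1:24615706-24615825, minus strand) and 99.8% identical over the last 483 bases, so a read from this end of mt-Co1 matches Gm29216 equally well. The files held 604 control and 262 CFA UMIs at Gm29216, beside 114950 and 94647 at mt-Co1.

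The last set shows light-strand genes where they meet genes of the other strand. The 3′ ends of mt-Nd5 (chrM:13506-13565, plus strand) and mt-Nd6 (chrM:13552-13611, minus strand) overlap by 14 bases, in capitals, and the whole tRNA gene mt-Ts1 (chrM:6870-6938, minus strand) ends in 3 capital bases that overlap the end of mt-Co1.
mt-Nd5: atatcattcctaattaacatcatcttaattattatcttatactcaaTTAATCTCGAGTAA
mt-Nd6: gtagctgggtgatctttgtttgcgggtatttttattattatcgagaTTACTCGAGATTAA
mt-Ts1: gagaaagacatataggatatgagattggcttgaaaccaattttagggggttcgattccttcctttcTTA
Whether the counting used the strand of a read is not given in the sources used here. Without strand, a read in these overlaps could belong to either gene, and an RNA antisense to a light-strand gene could be counted as that gene. In base composition mt-Nd6 stood apart from the 12 heavy-strand protein genes. It held 22.2% A with no run of A longer than 3, against 29.5% to 40.7% A and longest runs of 4 to 8 in the others.

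Mitochondrial RNA made up 3.33% of all UMIs of the kept control cells and 3.52% of those of the kept CFA cells, and 8 of the 37 genes supplied nearly all of it. These were mt-Cytb of complex III, mt-Nd1, mt-Nd2, mt-Nd4 and mt-Nd5 of complex I, mt-Co1 of complex IV and the rRNA genes mt-Rnr1 (12S) and mt-Rnr2 (16S), with 98.3% of mitochondrial UMIs in each library. The 22 tRNA genes together held 0.859% in the control library and 0.877% in CFA. A total of 34 genes in the control library and 32 in CFA had at least 10 UMIs, and 13 and 11 had at least 1000 UMIs.

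**Figure D1:**
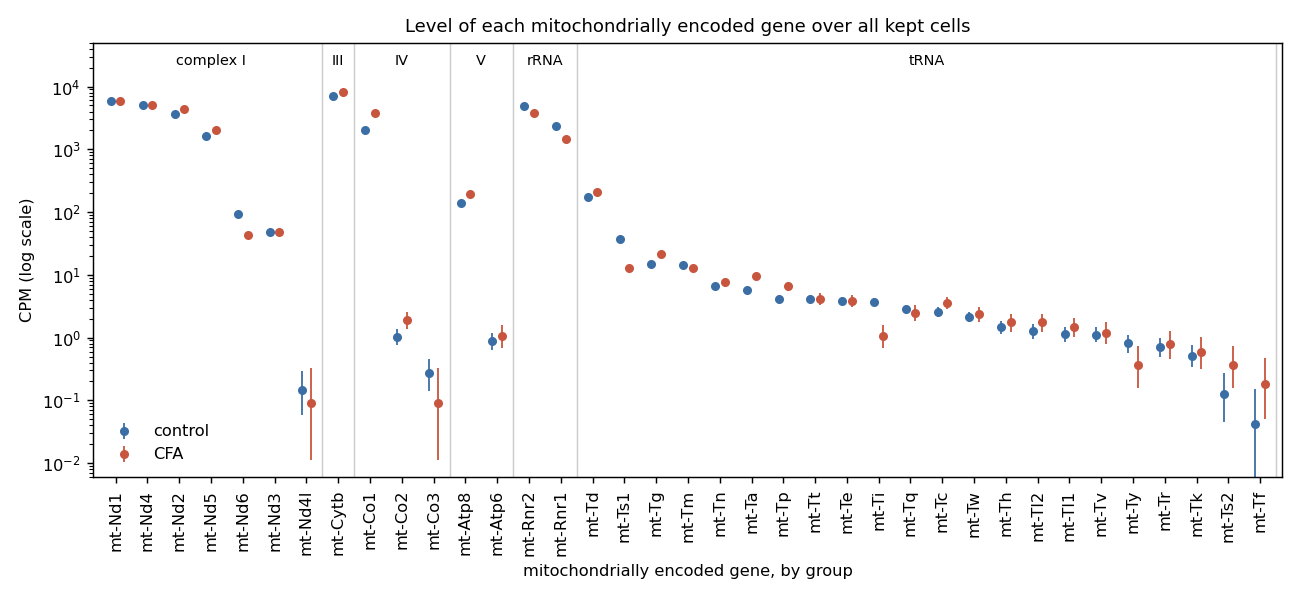
Level of each of the 37 mitochondrially encoded genes over all kept cells, in UMIs scaled to the same total (CPM) on a log scale, with exact 95% Poisson intervals, for the control (blue) and the CFA library (red), ordered by complex or RNA class. Levels span from under 1 CPM for several genes, such as mt-Tf and mt-Nd4l, to 8101 CPM for mt-Cytb, mt-Co1 was higher in the CFA library, and mt-Nd6, mt-Ts1, mt-Ti and both rRNA genes were lower.

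Per kilobase of gene, mt-Nd1 had the highest level in the control library with 6249 CPM per kb, followed by mt-Cytb with 6172 CPM per kb. Each UMI stands for 1 captured molecule whatever the length of the gene, so values per kb raise short genes. Without division by length mt-Cytb led in the control library too, with 7061 CPM against 5980 CPM for mt-Nd1. In the CFA library mt-Cytb led with 7081 CPM per kb and mt-Nd1 followed with 6162 CPM per kb. mt-Co1 stood at 1299 CPM per kb in the control library and 2471 CPM per kb in CFA. The light-strand gene mt-Nd6 reached 179 and 83.0 CPM per kb, far below every other complex I gene except mt-Nd3, with 137 and 136 CPM per kb, and mt-Nd4l, with 0.489 and 0.311 CPM per kb. Mature tRNAs are short and not polyadenylated, and of their genes mt-Td, directly before mt-Co2 on the heavy strand, had the highest level. It had 176 and 211 CPM from a gene of 70 bases, which gives 2514 and 3021 CPM per kb. That is above mt-Co1 per kb, although mt-Co1 had 2006 and 3818 CPM.

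A group of 4 protein genes was almost absent from the files, although their products are core subunits. mt-Atp6 of complex V had 53 UMIs in the control and 31 in the CFA file, mt-Co2 of complex IV had 57 and 51, mt-Co3 of complex IV had 17 and 3, and mt-Nd4l of complex I had 7 and 3. Each of these genes has a nuclear pseudogene of the same or nearly the same sequence, and these held more UMIs. Gm10925, identical over 678 of the 681 bases of mt-Atp6, held 30420 control and 20028 CFA UMIs. Gm28437, identical over 783 of the 784 bases of mt-Co3, held 18852 and 7435. For mt-Co2 the identical copy Gm28661 held 581 and 395 UMIs, while the 95.9% identical Gm13341 on chromosome 2 held 7920 and 3314. For mt-Nd4l the copy Gm10222 held 108 and 51 UMIs, so the sum of gene and copy stayed low as well. The other sums of gene and copies in the kept cells were higher but stayed below that of mt-Co1 (2083 CPM in control and 3896.5 in CFA). They were 530 and 773 CPM for mt-Atp6, 153 and 146 CPM for mt-Co2, and 335 and 291 CPM for mt-Co3.

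In all, 11 annotated nuclear pseudogenes matched 9 mitochondrial protein genes over at least 100 bases at 95% identity or more, and 7 of them lie next to each other in a block of 4663 bases at chr1:24611535-24616197. The unannotated sequence between these 7 was not searched for copies of other mitochondrial genes, such as mt-Atp8 or tRNA genes. The copies with the most UMIs, Gm10925, Gm28437 and Gm13341, belong to genes that had few. Gm13340 held 3581 control and 1662 CFA UMIs beside the high level of mt-Co1. mt-Nd3 was split almost evenly, with 2708 control and 1220 CFA UMIs beside 3613 and 1176 at Gm28438, from which it differs at T3C. For the 4 high-level genes with partial copies or copies of lower identity, mt-Nd2, mt-Nd4, mt-Nd5 and mt-Co1, nearly all counted UMIs of gene and copies stood at the mitochondrial gene. Exact matches of at least 50 bases to nuclear transcripts covered 17.2%, 63.6%, 24.3% and 74.9% of their lengths. Reads left uncounted because they matched several places would not appear in these values. In the kept cells 96.3% of the control and 98.0% of the CFA UMIs of mt-Co1 and its copies stood at mt-Co1. Counted with these 11 copies, mitochondrial RNA came to 3.44% of control and 3.65% of CFA UMIs. How the aligner treated reads with several places was not given in the sources used here, and whether any of these UMIs came from nuclear transcripts was not tested.

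**Figure D2:**
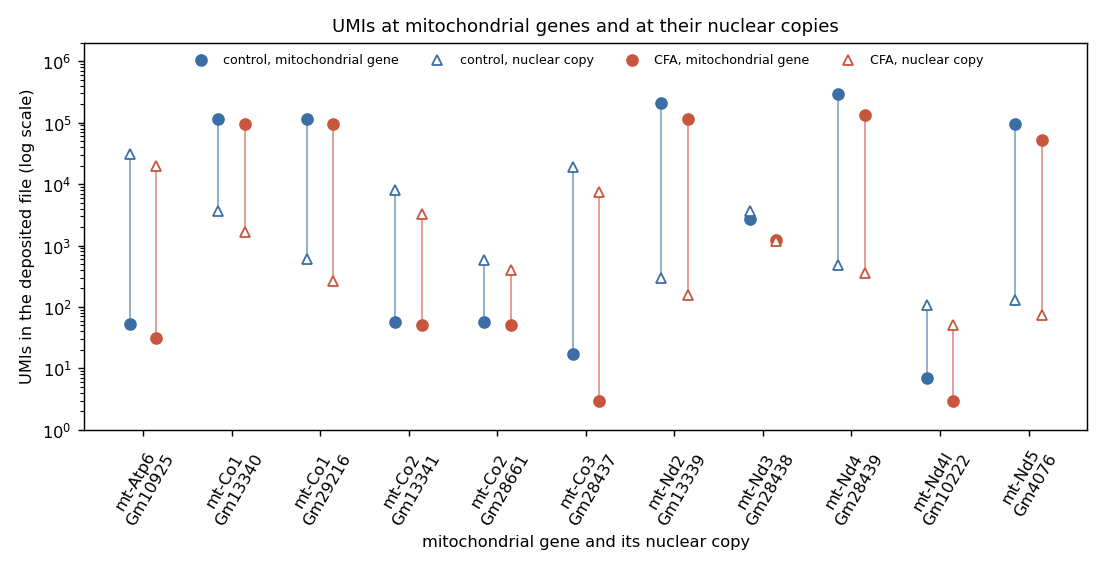
UMIs in the deposited files at 9 mitochondrial genes (filled circles) and at their 11 nuclear copies (open triangles), on a log scale, for the control (blue) and CFA (red) files. For mt-Atp6, mt-Co2, mt-Co3 and mt-Nd4l the copy lies above the mitochondrial gene, for mt-Nd3 the symbols nearly coincide, and for mt-Co1, mt-Nd2, mt-Nd4 and mt-Nd5 the mitochondrial gene lies above.

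Cells were grouped by clustering without the mitochondrial genes, and clusters were named from marker genes as neuron-like, satellite glia-like and so on, here called by the class name alone. The 10 classes are neurons (826 control and 430 CFA cells), satellite glial cells (1267 and 458), myelinating (2073 and 1308) and non-myelinating Schwann cells (730 and 280), oligodendrocyte-like cells (110 and 147), fibroblasts (593 and 403), endothelial (293 and 163), mural (68 and 23), immune (357 and 232) and erythroid cells (53 and 98). Cells of a library share its preparation and its free RNA, so the classes are not independent of each other, and the part of free RNA in these values was not tested. The satellite glial class includes a cluster led by the interferon-response genes Gbp2 and Cxcl10 with 310 control and 7 CFA cells.

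Among kept cells, neurons had the lowest mitochondrial share and satellite glial cells the highest in both libraries. Neurons held 2.43% mitochondrial UMIs in control and 2.68% in CFA cells, at a median depth of 43561 and 34968.5 UMIs. Satellite glial cells, which wrap the neuronal cell bodies, held 9.65% and 10.5% at a median depth of 1897 and 1752 UMIs. The other classes lay between 3.90% (immune) and 7.62% (mural) in the control and between 3.65% (immune) and 6.89% (mural) in the CFA library. The share was higher in the CFA library in 3 classes, by a log2 ratio of 0.14 (0.14 to 0.15) in neurons, 0.13 (0.12 to 0.14) in satellite glial cells and 0.23 (0.21 to 0.25) in fibroblasts. It was lower in 7 classes, from -0.10 in both Schwann cell classes and in immune cells to -0.23 in oligodendrocyte-like and -0.39 (-0.45 to -0.33) in erythroid cells. Mature erythrocytes lack mitochondria, and the erythroid cluster, led by the hemoglobin genes Hbb-bt and Hba-a1 together with the proliferation gene Mki67, held 5.37% in control and 4.09% in CFA cells.

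These differences in share were small and several did not hold under other settings. In neurons the median share of single cells was 2.27% in the control library and 2.51% in CFA, while the 95th percentile was lower in the CFA library, at 6.15% against 7.45%. With every neuron weighted equally the log2 ratio was 0.01 in place of 0.14. With each cluster of a class given the same weight in both libraries, the ratio turned to -0.02 in satellite glial cells and -0.01 in fibroblasts, whose clusters differed in size between the libraries. The filter itself used these values, since 496 control cells (6.80%, 6.23% to 7.40%) and 175 CFA cells (4.29%, 3.69% to 4.96%) exceeded 25% mitochondrial UMIs. The cells over this limit had a median of 593.5 and 899 UMIs and held 16.5% and 15.6% of all mitochondrial UMIs. Without the limit, cells were clustered anew, and 1219 control and 577 CFA cells were named neurons, against 826 and 430 with it. How many of the additional cells exceeded the limit was not counted, so the low share of neurons holds for kept cells only.

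**Figure D3:**
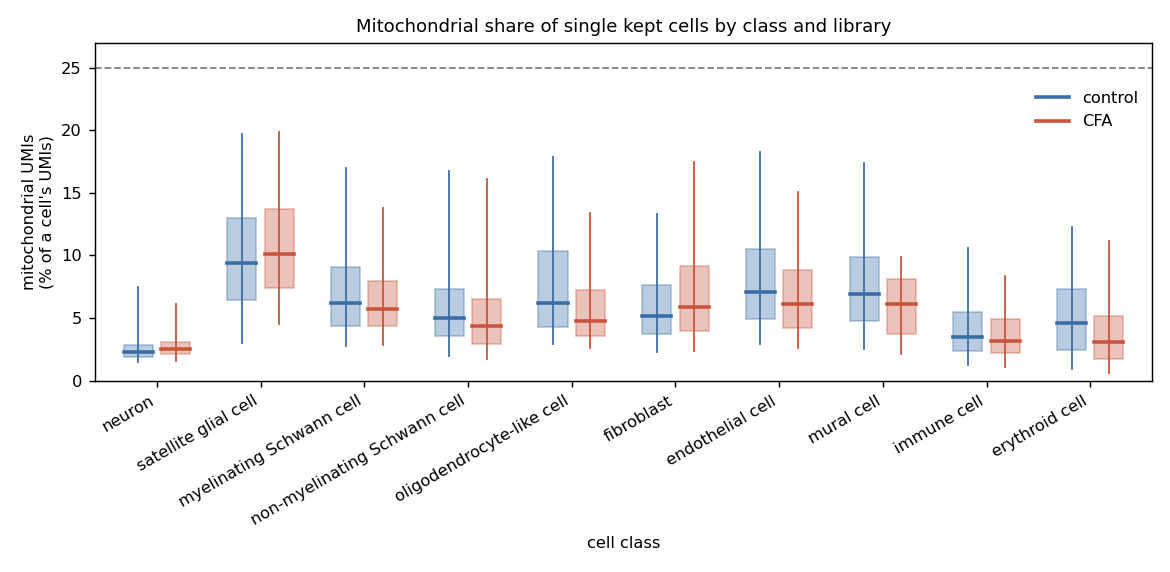
Mitochondrial UMIs as a percentage of a cell's UMIs, by class and library (control blue, CFA red), with the median (thick line), the middle 50% (box) and the 5th to 95th percentile (line) over kept cells, and the upper limit of the filter as a dashed line. Neurons sit lowest with medians of 2.27% and 2.51%, satellite glial cells highest with 9.39% and 10.1%, and the ranges of the libraries overlap in every class.

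Among the genes of complex IV, mt-Co1 differed most in neurons when nuclear copies were counted with each gene, at a log2 ratio of 0.96 (0.94 to 0.98). This gene encodes the catalytic subunit of cytochrome c oxidase. Counted without its copies, it was at 1671 CPM in control and 3310 CPM in CFA neurons (log2 ratio 0.99, 0.97 to 1.00). It took 6.88% of the mitochondrial UMIs of control neurons and 12.4% of those of CFA neurons. In satellite glial cells it was at 5347 and 10658 CPM (log2 ratio 1.00, 0.96 to 1.03), and in fibroblasts at 2653 and 5936 CPM (1.16, 1.09 to 1.23). It was higher in the CFA library in all 10 classes, with every counting interval above 0, and the smallest ratio was that of mural cells at 0.53 (0.26 to 0.79). At a finer grain, mt-Co1 was higher in the CFA library in 24 of 24 clusters of all cells and in 16 of 16 clusters of neurons. The latter regroup neurons of the former, and all come from the same pair of libraries, so these counts are not independent.

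The difference in mt-Co1 was spread over the neurons. Among neurons with at least 100 mitochondrial UMIs, 818 control cells had a median of 6.74% of these UMIs at mt-Co1, with a 95th percentile of 9.30%. In the 417 CFA neurons the median was 12.2% and the lower quartile 10.7%, above the 95th percentile of the control neurons. Satellite glial cells followed the same order with medians of 5.45% and 9.90%, and myelinating Schwann cells with 3.57% and 6.22%, although their ranges overlapped more. Of the other complex IV genes, mt-Co2 and mt-Co3 held few UMIs under their own names. In neurons mt-Co2 had 33 control and 29 CFA UMIs, at a log2 ratio above 0.5, and mt-Co3 had 10 and 0. The ranking of mt-Co1 above them was made on sums with copies only. The sums of each gene with its copies in neurons gave a log2 ratio of -0.05 (-0.12 to 0.03) for mt-Co2 and -0.20 (-0.25 to -0.15) for mt-Co3. The mt-Co2 sum came mostly from the less similar copy Gm13341 (4779 control and 1928 CFA UMIs), at -0.11 (-0.19 to -0.03). The identical copy Gm28661 (376 and 230 UMIs) was at 0.49 (0.25 to 0.73), so the direction for mt-Co2 depended on which copies were counted. The nuclear copies of mt-Co1 did not share its shift, with a log2 ratio in neurons of 0.09 (-0.02 to 0.19) for Gm13340 and -0.00 (-0.28 to 0.27) for Gm29216.

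Complex I, the entry point of electrons from NADH, was divided. mt-Nd6, the light-strand gene of this complex, was at 87.9 CPM in control and 40.0 CPM in CFA neurons, from 3398 and 673 UMIs (log2 ratio -1.14, -1.26 to -1.02). Its part of mitochondrial UMIs in neurons was 0.362% and 0.149%. mt-Nd6 was lower in the CFA library in 9 of 10 classes, and in 8 of these the counting interval lay below 0. Satellite glial cells had 180 and 96.5 CPM (-0.90, -1.25 to -0.57) and myelinating Schwann cells 99.4 and 42.8 CPM (-1.22, -1.67 to -0.78), the latter at -0.05 when cells had to hold at least 2000 UMIs.

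The exception for mt-Nd6 was the oligodendrocyte-like class, with 32 control and 56 CFA UMIs and a ratio of 0.22 (-0.43 to 0.90). In mural cells, with 15 and 4 UMIs, the interval also included 0 (-2.27 to 1.43). mt-Nd6 was lower in all 16 clusters of neurons and in 12 of the 13 clusters of all cells that held at least 50 of its UMIs. These counts again share neurons and libraries. Among neurons with at least 100 mitochondrial UMIs, 89 of 818 control cells and 132 of 417 CFA cells had no UMI of mt-Nd6. Such numbers depend on depth too, and the median depth of all kept neurons was 43561 UMIs in control and 34968.5 in CFA. In cells with at least 2000 UMIs the number of classes with lower mt-Nd6 was 7 of 10, and 1 of these was the myelinating Schwann cells at -0.05. Non-myelinating Schwann cells turned to 0.68 and mural cells were no longer lower. In neurons the ratio was -1.14 in such cells, and in satellite glial cells -0.92.

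**Figure D4:**
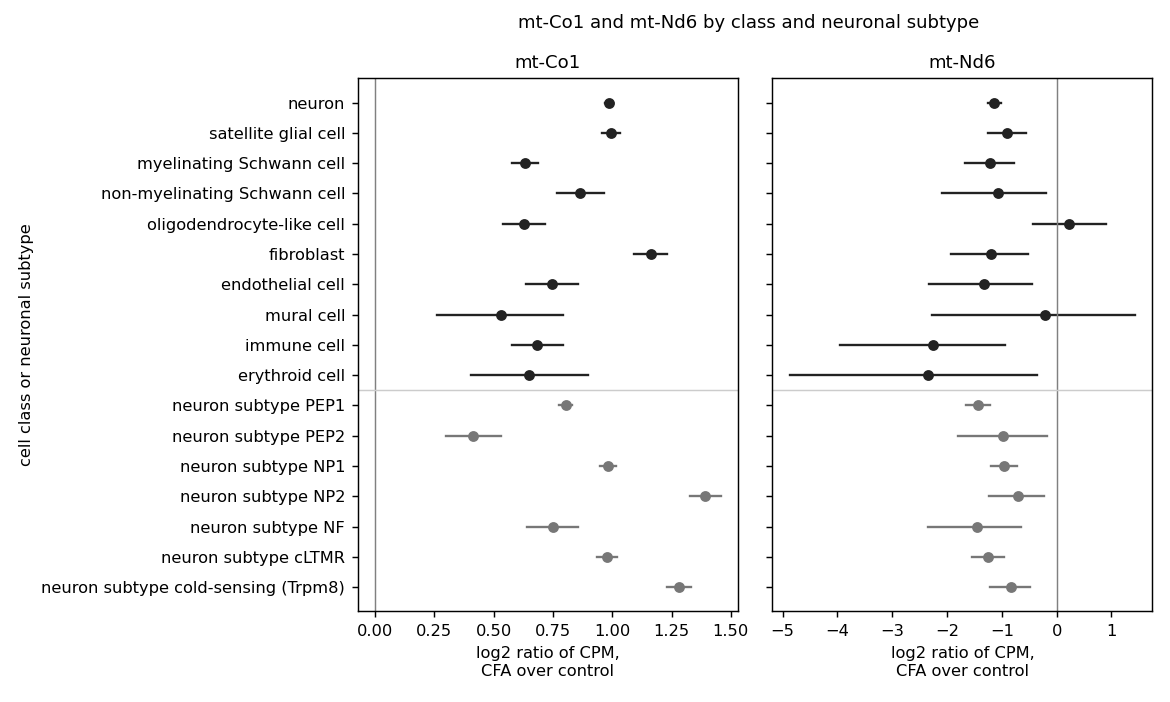
Log2 ratio of CPM, CFA over control, of mt-Co1 (left) and mt-Nd6 (right) in the 10 cell classes (black) and 7 neuronal subtypes (grey), with exact 95% counting intervals and separate horizontal scales. All points of mt-Co1 lie above 0, from 0.41 to 1.39, and all points of mt-Nd6 lie below 0 except that of oligodendrocyte-like cells.

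The heavy-strand genes of complex I differed far less than mt-Nd6. In neurons mt-Nd1 (5296 and 5318 CPM, log2 ratio 0.01) and mt-Nd4 (3908 and 3938 CPM, 0.01) were nearly level, and their counting intervals included 0. mt-Nd2 was at 2827 and 3399 CPM (0.27, 0.25 to 0.28). mt-Nd5, the neighbour of mt-Nd6 on the other strand, was at 1288 and 1712 CPM (0.41, 0.39 to 0.43), opposite in direction to mt-Nd6. Across classes mt-Nd5 was higher in the CFA library in 7 and lower in 3, from -0.28 in erythroid cells to 0.41 in fibroblasts. mt-Nd3 was close to level in neurons at -0.06 (-0.20 to 0.07), and its sum with Gm28438 was at -0.31 (-0.40 to -0.22).

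The genes of complexes III and V were mostly higher in the CFA library, by smaller ratios than mt-Co1. mt-Cytb, the only mitochondrial gene of complex III, had the most mitochondrial UMIs, with 5489 CPM in control and 6290 CPM in CFA neurons (log2 ratio 0.20, 0.19 to 0.21). It was higher in 9 of 10 classes, up to 0.58 in fibroblasts, and lower in erythroid cells at -0.31. mt-Atp8 of complex V had 119 and 176 CPM in neurons (0.57, 0.50 to 0.64) and was higher in 9 of 10 classes, although its interval lay above 0 in 3 of them. mt-Atp6, which overlaps mt-Atp8 by 43 bases on the same strand, gave 0.61 (0.57 to 0.64) in neurons when its nuclear copy was included. In mammals both genes are translated from a shared mRNA.

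Both rRNAs of the mitochondrial ribosome were lower in the CFA library in all 10 classes, with every counting interval below 0. In neurons mt-Rnr1 was at 1254 and 791 CPM (log2 ratio -0.66, -0.69 to -0.64) and mt-Rnr2 at 2063 and 1537 CPM (-0.42, -0.45 to -0.40). The largest differences were -1.09 for mt-Rnr1 in mural cells and -1.04 for mt-Rnr2 in oligodendrocyte-like cells. The rRNA part of mitochondrial UMIs also varied strongly among classes. It was highest in endothelial cells, at 56.3% of control and 47.5% of CFA mitochondrial UMIs, and lowest in neurons, at 13.7% and 8.69%. Endothelial cells had the lowest part of complex I mRNA, at 28.3% and 30.8% against 55.4% and 53.9% in neurons.

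The make-up of mitochondrial RNA differed more between some classes than between the libraries for mt-Nd1 and mt-Rnr2. mt-Nd1 took 21.8% of mitochondrial UMIs in control and 19.8% in CFA neurons, but 9.64% and 9.77% in endothelial cells. mt-Rnr2 took 8.49% and 5.74% in neurons, and 44.8% and 39.4% in endothelial cells. mt-Cytb took between 10.6% (endothelial cells) and 22.6% (neurons) in the control library and between 13.2% (endothelial cells) and 27.3% (fibroblasts) in CFA. The part of mt-Co1 was between 3.83% (myelinating Schwann cells) and 6.88% (neurons) in the control library and between 6.36% and 12.4% in the same classes of the CFA library. These are descriptions across classes of unequal depth, with no test.

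tRNA genes were sparse and did not move together. mt-Ts1, a light-strand serine tRNA, had 1408 UMIs in control and 191 in CFA neurons, or 36.4 and 11.4 CPM (log2 ratio -1.68, -1.91 to -1.46). It was lower in 9 of 10 classes, 6 of them with an interval below 0. mt-Ti, the isoleucine tRNA on the heavy strand, was at 138 and 17 UMIs in neurons (-1.82, -2.64 to -1.09). mt-Td, the aspartate tRNA with the most UMIs of the group, was higher in all 10 classes and at 0.25 (0.19 to 0.31) in neurons. mt-Ta, mt-Tg and mt-Tp were also higher in all 10 classes, with the interval above 0 in 2, 3 and 0 of them. The remaining 16 tRNA genes had from 2 UMIs (mt-Tf) to 746 UMIs (mt-Tm) in the control file and from 5 to 299 in the CFA file, and their ratios had no common direction across classes. mt-Ta and mt-Tp are light-strand genes like mt-Nd6 and mt-Ts1, so the light-strand genes did not share a direction.

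**Figure D5:**
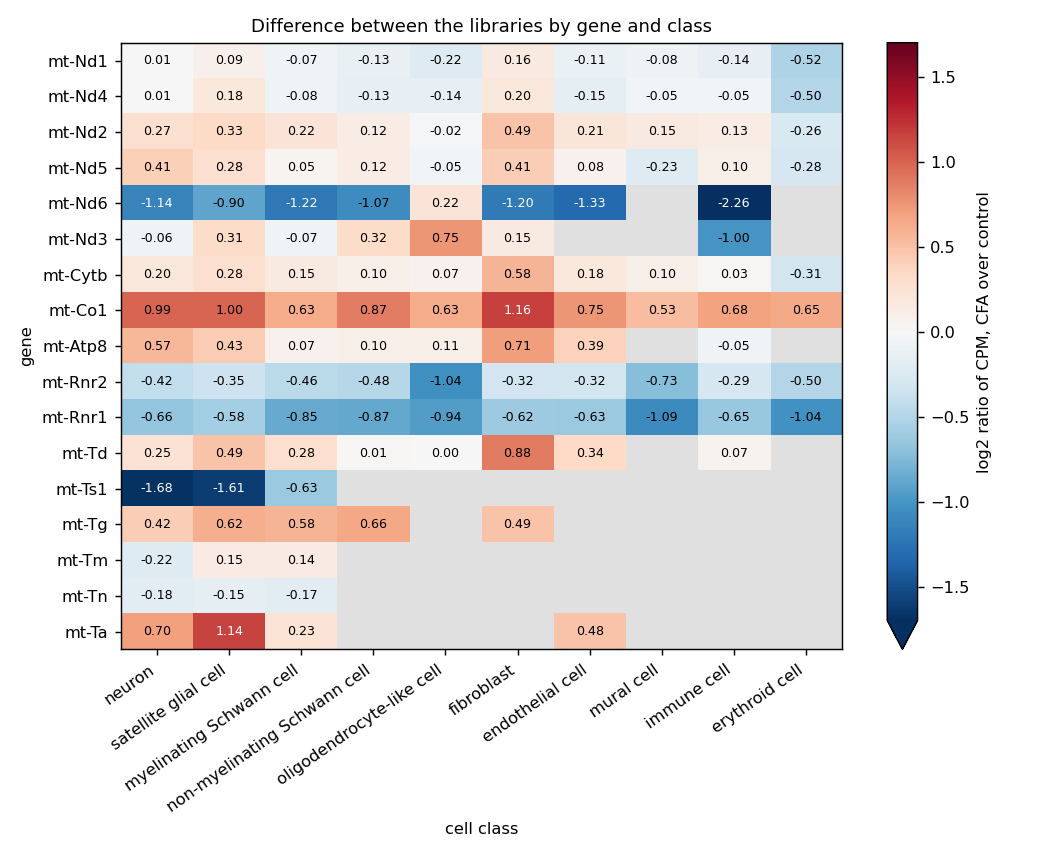
Log2 ratio of CPM, CFA over control, of the 17 genes with at least 50 UMIs over both libraries in 3 or more classes (rows) in the 10 cell classes (columns), red for higher and blue for lower in CFA, grey for fewer than 50 UMIs. The row of mt-Co1 is red throughout, the rows of mt-Rnr1 and mt-Rnr2 are blue throughout, and mt-Nd6 is blue in all classes shown except oligodendrocyte-like cells.

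Read against all genes, a log2 ratio of 0.5 or more was found for 6.21% of the 14506 genes with at least 50 UMIs in neurons, and one of -0.5 or less for 6.01%. Of the 24 mitochondrial genes above that count, 4 were past 0.5 (mt-Atp8, mt-Co1, mt-Co2 and mt-Ta) and 6 were past -0.5 (mt-Nd6, mt-Rnr1, mt-Te, mt-Ti, mt-Tq and mt-Ts1). For mt-Te and mt-Tq the counting interval included 0 in neurons and in every other class with a ratio. mt-Co2 was counted there from 33 control and 29 CFA UMIs. With both nuclear copies it was at -0.05, a sum made up mostly of the less similar copy Gm13341. The median log2 ratio of these genes was -0.03, beside -0.00 over all genes counted. In satellite glial cells 3 of 17 were higher (background 10%) and 3 lower (12.2%), with a median of 0.28 beside 0.01. In myelinating Schwann cells 2 of 20 were higher (11.6%) and 3 lower (9.75%), with a median of 0.06 beside 0.04. mt-Co1 was in the higher group and mt-Nd6, mt-Rnr1 and mt-Ts1 in the lower group in each of these 3 classes.

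The neuronal subtypes, named from marker genes by the same procedure, differed in their mitochondrial share. A cluster of 18 control and 17 CFA neurons led by Trappc3l and Tac2 was left without a name, since its best marker score (0.353, for NF) was low and no NF marker was among its leading genes. Cold-sensing neurons, marked by the cold channel Trpm8, had the highest share in both libraries, at 3.46% of UMIs in 72 control and 4.56% in 47 CFA cells (medians of single cells 3.34% and 3.94%). C-fiber low-threshold mechanoreceptors (cLTMR) had 3.00% and 3.15%, and neurofilament-rich (NF) neurons 2.99% from 19 control and 2.88% from 6 CFA cells. Peptidergic PEP1 neurons, the most numerous with 382 and 217 cells, had 2.40% and 2.49%, and PEP2 neurons, led by Sst and Nppb, 2.29% and 2.06% from 12 and 11 cells. The nonpeptidergic NP1 neurons had 2.15% and 2.12%. Their medians of single cells were 1.91% and 2.05%, the former the lowest control median, and their 95th percentiles were 20.2% and 4.36%. NP1 includes a cluster with Malat1 among its leading genes, of 20 control and 2 CFA cells at a median of 11790 UMIs. The other NP1 clusters had medians of 67457 and 62561.5 UMIs. PEP1 includes a cluster led by interferon-response genes, of 19 control and 2 CFA cells. NP2 neurons, which respond to pruritogens, had the lowest control share of summed UMIs, at 1.93% from 53 cells. Their CFA share was 2.92% from 16 cells, a log2 ratio of 0.60 (0.58 to 0.62). The medians of single NP2 cells lay closer together, at 1.96% and 2.53%, while the 95th percentile was 3.42% in control and 18.2% in CFA cells.

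Within each subtype mt-Co1 was higher and mt-Nd6 lower in the CFA library. mt-Co1 ranged from 0.41 (0.30 to 0.53) in PEP2 to 1.28 (1.23 to 1.33) in cold-sensing and 1.39 (1.33 to 1.46) in NP2 neurons. Taken as a part of the mitochondrial UMIs, the log2 ratios of mt-Co1 lay closer together, from 0.56 in PEP2 to 1.00 in NP1. On that scale mt-Co1 was between 6.59% (cold-sensing) and 8.58% (PEP2) in the control and between 11.7% (PEP1) and 13.4% (NP1) in the CFA library. mt-Nd6 ranged from -1.45 (-2.36 to -0.65) in NF and -1.43 (-1.65 to -1.22) in PEP1 to -0.71 (-1.24 to -0.22) in NP2. mt-Ts1 was lower in all 7 subtypes. In CPM the rRNAs were lower in 6 of 7 subtypes. NP2 gave 0.16 (0.06 to 0.26) for mt-Rnr1 and 0.24 (0.17 to 0.31) for mt-Rnr2, beside its higher mitochondrial share. Taken as a part of the mitochondrial UMIs, both rRNAs together were lower in the CFA library in NP2 neurons too. On that scale they held 14.41% in control and 11.01% in CFA NP2 neurons.

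In CPM, mt-Nd5 separated the subtypes more than the other complex I genes of the heavy strand. Its log2 ratio was 1.04 (0.95 to 1.13) in NP2 and 0.78 (0.72 to 0.84) in cold-sensing neurons. It was 0.24 in PEP1, 0.21 in NP1 and 0.18 in cLTMR neurons, and -0.13 (-0.27 to 0.02) in PEP2 and -0.05 (-0.20 to 0.11) in NF neurons. NP2 and cold-sensing neurons also had the highest log2 ratios of the mitochondrial share, at 0.60 and 0.40, and PEP2 the lowest, at -0.15. The CPM ratios of mt-Nd5 include these differences in share. In the cluster without a name mt-Nd5 was at 1523 and 3269 CPM, mt-Co1 at 1581 and 3629 CPM, and the log2 ratio of the share was 0.40 (0.37 to 0.43), with a median depth of 45728.5 UMIs in control and 17298 in CFA cells. No test of a difference between subtypes was possible, and NP2, PEP2 and NF rest on 6 to 53 cells per library.

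The same directions were present in the cells that the filter removed. In cells above 25% mitochondrial UMIs, mt-Co1 made up 5.69% of control and 8.30% of CFA mitochondrial UMIs (log2 ratio of these parts 0.55, 0.51 to 0.58). mt-Nd6 made up 0.181% and 0.0770% (-1.23, -1.54 to -0.94). mt-Rnr1 made up 10.8% and 6.79%, and mt-Rnr2 18.1% and 12.3%. In these cells mt-Nd1 and mt-Nd4 were nearly level, at 0.04 and 0.05. Over all kept cells they were at -0.02 and 0.01 in CPM, and at -0.10 and -0.07 as parts of mitochondrial UMIs. By class, each was lower in CPM in 7 of 10 classes and higher in 3.

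The nuclear genes that transcribe, process and stabilise mitochondrial RNA were compared as a list of 34 genes chosen for their function. All 34 had at least 50 UMIs in neurons, and none passed a log2 ratio of 0.5 in either direction, beside the background of 6.21% and 6.01%. The mitochondrial RNA polymerase Polrmt was at 11.9 and 10.3 CPM (-0.21, -0.47 to 0.04) and the transcription and packaging factor Tfam at 21.1 and 25.9 CPM (0.30, 0.12 to 0.47). Lrpprc and Slirp, partners that stabilise mitochondrial mRNAs, were at -0.18 (-0.27 to -0.09) and 0.03 (-0.04 to 0.10). Pnpt1, the polynucleotide phosphorylase of mitochondrial RNA decay, was at -0.30 (-0.48 to -0.11), and its helicase partner Supv3l1 at -0.13 (-0.42 to 0.15). The RNA-binding protein Grsf1 was at 0.01 (-0.07 to 0.10). In satellite glial cells 16 genes of the list had 50 UMIs or more, of which 1 (Tfam) was past 0.5, beside 10% of all genes, and 4 (Polrmt, Lrpprc, Pnpt1 and Fastk) past -0.5, beside 12.2%. Only the interval of Pnpt1 (-1.96 to -0.20) left out 0 among these 5. In myelinating Schwann cells 3 of 17 were past 0.5 (Tfb2m, Ssbp1 and Ptcd1), beside 11.6%, and 3 past -0.5 (Mterf3, Twnk and Fastk), beside 9.75%. Among these 6 only the interval of Ssbp1 (0.08 to 1.09) left out 0.

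The nuclear long noncoding RNA Malat1 also differed between the libraries, in the direction of the rRNAs in neurons. It was at 1016 CPM in control and 703 CPM in CFA neurons (log2 ratio -0.53), at -0.75 in myelinating Schwann cells and -1.15 in oligodendrocyte-like cells, and higher in satellite glial (0.18) and erythroid cells (0.48). Its part in the mitochondrial differences was not tested.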

How the data were processed

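Right TG cells of 1 control and 1 CFA library were profiled with BD Rhapsody. The authors deposited raw UMI counts (whole numbers, no normalization) for each cell and gene, and their processing notes name fastp and GRCm38. The aligner, the annotation and the strand setting are not given in the sources used here. Depth was 48916096 UMIs in the control and 22096268 UMIs in the CFA file.

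Cells with at least 150 genes and at most 25% mitochondrial UMIs were kept. Mitochondrial genes were left out of normalization and clustering (R 4.3.3, Seurat 5.3.0, 2000 variable genes, 20 principal components, resolution 0.8, and 1 for neurons, seed 1). Both libraries were clustered together. Clusters took the name of the best-scoring marker set with at least 3 markers found, and 3 clusters without a clear name, led by Ncmap beside neuronal markers, by Igkc and Ighm, and by Olig1 and Vcan, were used in no class. After the leading genes were seen, a neuron cluster with a score under 0.4 and no marker of its best subtype among its 10 leading genes was left without a subtype. Doublets were kept, and their removal at a Scrublet score above 0.25 (scanpy 1.11.5, expected rate 0.05) is an alternative.

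Counts were summed per class and library with Python 3.11.15, numpy 2.4.6, scipy 1.17.1 and pandas 2.3.3. CPM have exact Poisson intervals, shares Clopper-Pearson intervals, and ratios the exact interval conditional on the sum of both counts, all at 95%. These intervals cover counting error only, since 1 library per condition gives no replicates. The calculation of ratio intervals was checked on neuron counts simulated with Poisson counting error alone. There they held the true ratio for 95.0% of 200 changed and 95.5% of 11688 unchanged genes. The simulation follows the model that the intervals assume, so it cannot show whether they cover variation between cells or libraries. A difference was counted when the log2 ratio reached 0.5 in either direction among genes with at least 50 UMIs over both libraries.

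Gene positions and sequences came from GENCODE M21 (GRCm38). Mitochondrial transcripts were compared with nuclear transcripts by BLAST 2.17.0, keeping matches of at least 100 bases and 95% identity. A genome search was planned, but no genome sequence was used here, so unannotated copies were not searched. All 37 genes were named, in the groups of the design. The members, the lists and the markers were chosen with earlier results of these data known.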

Additional observations from a re-analysis of the deposited data

Results flagged for a closer look

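The mitochondrial share of UMIs differed in direction between classes, with a log2 ratio of CFA over control of 0.23 in fibroblasts and -0.39 in erythroid cells. The difference between the classes was not tested, since each rests on 1 library per condition. The fibroblast value turned to -0.01 when its clusters had the same weight in both libraries.

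UMIs stood at nuclear pseudogenes that are no mitochondrially encoded genes by name. Gm10925 held 30420 UMIs in the control and 20028 in the CFA file, Gm28437 held 18852 and 7435, and Gm13341 held 7920 and 3314.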

How the results depend on the processing

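No paired analysis was possible because each condition has 1 library. In neurons the log2 ratio of the mitochondrial share (0.14) was 0.17 with the stricter filter, 0.12 without the mitochondrial limit, 0.15 with 30 principal components, 0.0097 with every cell weighted equally and 0.12 with equal cluster weights. That of mt-Co1 (0.99) was 1.03 with the stricter filter, 0.93 without the limit, 0.81 with cells weighted equally, 0.97 with equal cluster weights and 0.84 scaled to mitochondrial UMIs. That of mt-Nd6 (-1.14) was -1.28 both with cells weighted equally and scaled to mitochondrial UMIs. Under alternatives chosen after seeing the data, counting nuclear copies gave 0.96 for mt-Co1, and leaving out the Malat1-led and interferon-led neuron clusters gave 0.18 for the share and 1.02 for mt-Co1. mt-Co1 was higher in 10 of 10 classes under every alternative run, and mt-Nd6 lower in 9, except 7 in cells with at least 2000 UMIs. With equal cluster weights the share turned to -0.0198 in satellite glial cells and -0.0128 in fibroblasts, and at resolution 0.4 to -0.0114 in satellite glial cells. With the stricter filter it turned to 0.0055 in myelinating Schwann cells and 0.10 in mural cells. In cells with at least 2000 UMIs it turned to 0.0125 in myelinating Schwann, 0.40 in non-myelinating Schwann, 0.0137 in endothelial, 0.24 in mural and 0.0178 in immune cells, and mt-Nd6 to 0.68 in non-myelinating Schwann cells, while it moved from -1.22 to -0.05 in myelinating Schwann cells. The causes were not tested. Of the other values by class, 269 stayed within the counting interval and 71 lay outside it. Depth limits mt-Nd6 in small classes, with 3 to 15 UMIs per library in mural and erythroid cells.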
